A study of Mus musculus with 9 samples.

Results

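Hmga2, Lin28a and 6 further growth genes were followed in the mid-foregut of the mouse embryo while the lung buds are induced. The 8 genes are Hmga1, Hmga2, Lin28a, Igf2bp1, Igf2bp2, Igf2bp3, Mycn and Sall4, all active in early embryos. Most of them are largely shut down in adult tissues and often switched on again in tumours, hence the word oncofetal. They were chosen by symbol at a time when the signals of these arrays at the 3 stages were already known, so the stage differences below are a description and not a test of the choice. Of the 8 genes, 6 had at least 1 probe set whose single symbol was theirs, 16 probe sets in all, out of 12393 genes and 20380 probe sets named in the same way. The signals of Hmga1 and Igf2bp2 were not analysed here. Hmga2 had 3 probe sets, Lin28a 2, Igf2bp1 2, Igf2bp3 4, Mycn 3 and Sall4 2.

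The tissue came from wild-type embryos and lay between the pharyngeal arches and the liver, with heart and neural tube cut away. Groups were set by the count of somites, the segments laid down along the body axis: 16-20 somites (embryonic day 8.5), 21-25 somites (day 9.0) and 26-30 somites (day 9.5), with 3 replicates in each and no treatment. A replicate was a pool of 5 to 10 foreguts on 1 Affymetrix array, after amplification in 2 rounds from 100 ng of RNA, so each value mixes gut epithelium, mesenchyme and whatever blood or neighbouring tissue was taken along. In such bulk samples fewer cells of a type and less RNA per cell cannot be told apart. Signals are linear MAS5 values. Stage differences are on the scale of log2(signal + 26.2), each ± its SE in the limma fit, and each gene stands for its probe set with the highest mean unless another is named. Of the 16 probe sets, 11 had a mean above the filter level of 6.66 on that log2 scale, a signal of about 75.1, and the 6 genes were all tested among 8675.

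HMGA proteins bind AT-rich DNA in the minor groove and bend chromatin so that other factors can act. LIN28 proteins bind the precursors of the let-7 microRNAs and keep them from maturing, and mature let-7 in turn holds down the mRNAs of Hmga2, Lin28a, Mycn and the Igf2bp genes. The IGF2BP proteins bind and stabilise mRNAs, Igf2 and Myc among them, while Mycn and Sall4 encode transcription factors of growing embryonic tissue. In the embryonic lung Mycn is required for growth of the distal epithelium, and Hmga2 and Lin28a are known for high levels in early endoderm and mesoderm.

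Some arrays differed from others of their stage. For 1 array of 21-25 somites (replicate 1) and 2 of 26-30 somites (replicates 1 and 2) the top signal was 27479.8 to 32584, against 43792 to 61749 on the other 6; they are called narrow-range arrays here, and none is at 16-20 somites, so this range and the stage are partly confounded. Their ratios of 3' to 5' signal, a sign of RNA quality, were also the lowest. They were 20.9 to 22.2 for beta-actin against 22.4 to 45.3 on the other 6, and 16.0 to 21.0 for Gapdh against 21.6 to 40.9. All arrays followed 2 rounds of amplification, and the part of amplification in these ratios was not tested. The summed signal of 11 primitive blood markers was 19402 to 30185 on them and 33475 to 60981 on the others. Most of that sum was the globins Hbb-y (12224 to 26159 over all arrays) and Hbb-bh1 (2511 to 26723). On 16-20 somites replicate 2 the summed signal of 12 liver markers was 40570.3, against 1816 to 9911 on the other 8 arrays, and that of 16 heart muscle markers was 19977, against 2881 to 8132. Endoderm markers were above the filter level for 12 of 13 genes and foregut mesenchyme markers for 12 of 15, although Shh (0.7 to 38.3) and Foxf1 (12.7 to 65.0) were dim on all arrays. Neural tube markers passed for 6 of 13 genes, with Sox1 at 4.4 to 11.5 and Olig2 at 1.7 to 13.9, and germ cell markers for 5 of 12, with Pou5f1 at 2.7 to 39.8 and Nanog at 2.1 to 14.6. Tail bud markers passed for 7 of 13 genes and primitive blood markers for 11 of 11.

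Of the 6 genes tested, 5 had higher means at 26-30 than at 16-20 somites and 1, Igf2bp1, a lower mean. By size, the difference of Igf2bp3 stood at percentile 97.1 of all tested genes, Hmga2 at 97.0, Lin28a at 94.4, Sall4 at 85.3, Mycn at 84.6 and Igf2bp1 at 8.3. The median of the 6 log2 differences was 0.56, against 0.01 over all tested genes, of which 50.8% were positive. At an adjusted p under 0.05 (limma, Benjamini-Hochberg over all genes) 0 of the 6 were called, as were 0 of 8675 genes, or 0%, in each of the 3 comparisons of stages. Over all genes 967 had an unadjusted p under 0.05 for the whole interval, 960 for the first step and 353 for the second. The adjusted p of the 6 genes ran from 0.340 to 0.615 over the whole interval, from 0.388 to 0.767 for the step from 16-20 to 21-25 somites and was 0.998 for each at the step to 26-30 somites. With the 3 narrow-range arrays left out, 26-30 somites kept 1 array, assumed to vary like those of the other stages; then 3 of the 6 differences were positive and 3 negative, with a median of -0.02. Without 16-20 somites replicate 2 again 5 of the 6 were positive, with a median of 0.55. Hmga2 is thus described apart from Lin28a, Igf2bp3 and Sall4, whose values moved with the narrow-range arrays. The difference of Mycn over the whole interval also shrank without them, from 0.41 to 0.06. The part of RNA quality or of blood in this was not tested.

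**Figure D1:**
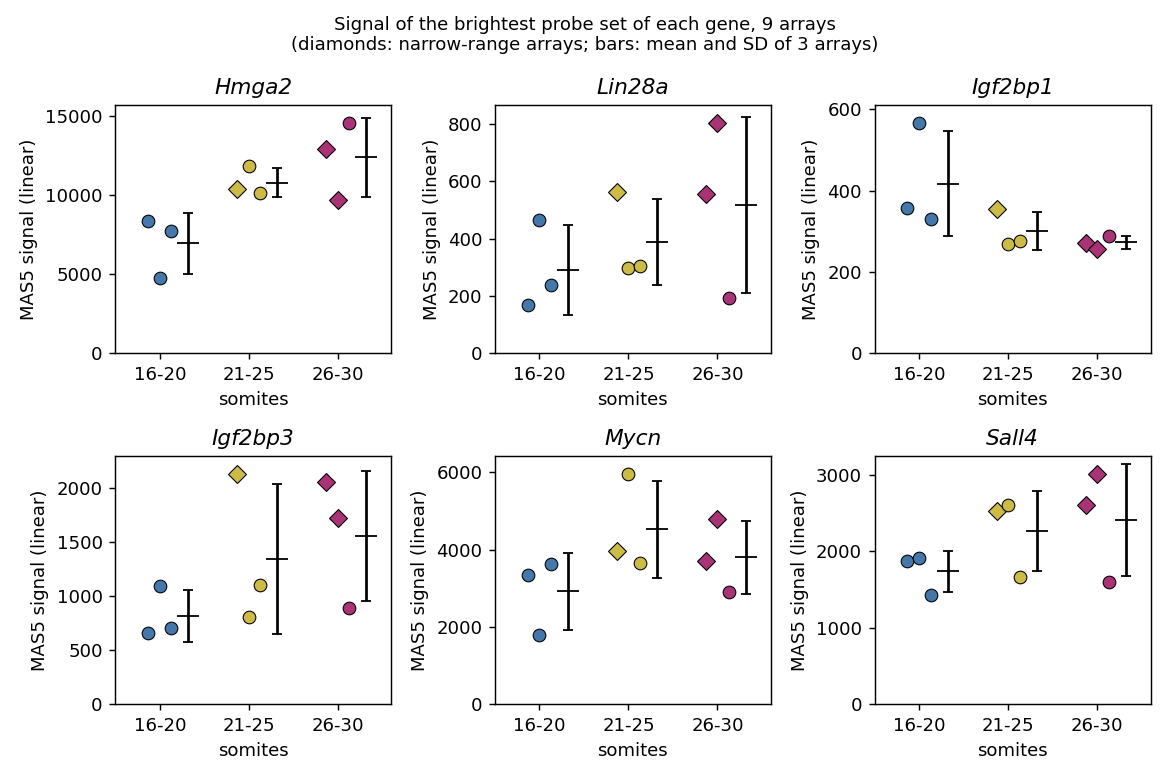
Signal (linear MAS5 scale, vertical axes from 0) of the probe set with the highest mean of each of the 6 genes, by somite stage (horizontal axes). Each point is an array, diamonds are the narrow-range arrays and bars give the mean and SD of 3 arrays; Hmga2 lies between 4735 and 8364 at 16-20 somites and between 9677 and 14561 at 26-30 somites.

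Hmga2 encodes the HMGA protein of embryonic growth, whose loss gives small mice. Its probe set 1422851_at had signals of 8364, 4735 and 7755 at 16-20 somites, 10395, 11834 and 10141 at 21-25 somites, and 12930.4, 9677 and 14561 at 26-30 somites. All 6 later arrays lay above all 3 of the first stage, while the arrays of 21-25 and 26-30 somites overlapped. The stage means were 6951 ± 1943, 10789.9 ± 913 and 12389 ± 2486 (SD, n = 3), a ratio of 1.78 between the last and the first. On the log2 scale this was 0.67 ± 0.25 for the first step, 0.18 ± 0.25 for the second and 0.85 ± 0.25 for the whole interval.

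The other Hmga2 probe sets gave nearly the same ratio of last to first stage. Probe set 1450780_s_at read 4235, 2583 and 3446 at 16-20 somites, 6011, 3903 and 5017 at 21-25 somites and 5593, 6330.4 and 5039.6 at 26-30 somites, a log2 difference of 0.74 ± 0.24 over the whole interval. Probe set 1450781_at read 454, 312 and 351, then 710.1, 279.6 and 703, then 649, 722 and 621, a difference of 0.81 ± 0.32. In both, as in the first, the arrays of 26-30 somites lay wholly above those of 16-20 somites, but at 21-25 somites 1 array, replicate 2, fell among or below the earliest ones. Replicate 2 of 21-25 somites also had the highest ratio of 3' to 5' signal for beta-actin, 45.3 against 20.9 to 36.8 elsewhere. Its Gapdh ratio, 36.4, was second to the 40.9 of 26-30 somites replicate 3, an array on which both Hmga2 probe sets stayed above the first stage. The part of these ratios in the values was not tested. The suffix _s_at marks a probe set whose probes match more than 1 transcript, so a share of its signal may belong to a related transcript.

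Hmga2 kept its direction without the arrays that stand apart. Without the 3 narrow-range arrays its difference over the whole interval was 1.11, and without 16-20 somites replicate 2, the array with high liver and heart markers and the lowest Hmga2 signal, it was 0.60. In probe set 1450780_s_at the narrow-range arrays, at 5593 to 6330.4, lay above all others, at 2583 to 5039.6, but in the other 2 they did not. Over all 22 alternative fits it stayed between 0.60 and 1.11, although several of these, such as another filter level, cannot change the value. The 3 arrays of 26-30 somites were wholly above those of 16-20 somites for 968 of 8675 genes, or 11.2%, and those of 21-25 somites for 602, or 6.94%; of the 6 genes, Hmga2 was 1 in the first comparison and Hmga2 and Mycn were 2 in the second. Because the choice of genes used these signals, nothing is read from those counts.

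The sequence upstream of Hmga2 is shown as that of the gene with the steadiest difference, with that of Igf2bp3, the gene with an equally wide one. Each is the run of 250 bases before the annotated start from RefSeq (GRCm38.p6), read 5′ to 3′ on the gene's own strand. Hmga2 lies on the minus strand, window chr10:120476470-120476719, and Igf2bp3 on the minus strand, window chr6:49214955-49215204. Capitals mark matches on either strand to CACGTG, the E-box of the MYC family, or to GGGCGG, the GC box of SP factors, counted with overlaps.
Hmga2: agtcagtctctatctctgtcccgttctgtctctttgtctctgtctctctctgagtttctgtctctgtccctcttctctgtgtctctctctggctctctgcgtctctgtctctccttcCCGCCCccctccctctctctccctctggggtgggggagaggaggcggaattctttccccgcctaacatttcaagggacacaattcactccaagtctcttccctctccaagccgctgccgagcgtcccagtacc
Igf2bp3: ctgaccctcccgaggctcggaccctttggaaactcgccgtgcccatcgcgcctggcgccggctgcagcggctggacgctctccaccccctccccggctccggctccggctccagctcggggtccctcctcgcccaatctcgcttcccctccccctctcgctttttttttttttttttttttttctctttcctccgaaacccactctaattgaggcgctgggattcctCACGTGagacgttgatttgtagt
The Hmga2 window held 1 GC box, written here on the opposite strand, and no E-box; the Igf2bp3 window held 1 E-box and no GC box. Of 32851 windows of this length in the table, 6.02% held an E-box and 32.7% a GC box. Of 7 windows for 6 of the 8 genes, 1 held an E-box and 5 a GC box. Those 6 genes include Hmga1 and Igf2bp2, whose signals were not analysed, but not Igf2bp1 and Sall4. The windows of Hmga1 overlap and share GC boxes, so nothing is read from the count. Among the genes with signals, the windows of Hmga2 and Mycn held a GC box and those of Lin28a and Igf2bp3 did not. The share of G and C was 56.4% in the Hmga2 window and 60.4% in the Igf2bp3 window, against a median of 52.4% over all windows. A match of letters is a description, not a site, and no binding was measured.

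Lin28a encodes the RNA-binding protein that blocks let-7 maturation, and its 2 probe sets disagreed. Probe set 1437752_at read 168, 466 and 239.6 at 16-20 somites, 562, 299 and 306 at 21-25 somites and 556, 803 and 192 at 26-30 somites. Its values overlapped between all stages, and the 3 highest, 562, 556 and 803, were those of the 3 narrow-range arrays, against 168 to 466 on the other 6. The means were 291 ± 156, 389 ± 149.7 and 517 ± 307 (SD, n = 3), with log2 differences of 0.44 ± 0.47 for the first step, 0.24 ± 0.47 for the second and 0.69 ± 0.47 for the whole interval. Without the narrow-range arrays the whole difference was -0.43, and without 16-20 somites replicate 2 it was 1.06.

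The second Lin28a probe set, 1421749_at, was below the filter level and ran the other way. It read 50.3, 95.6 and 92.0 at 16-20 somites, 56.5, 46.6 and 40.8 at 21-25 somites and 39.0, 19.1 and 60.4 at 26-30 somites, a log2 difference of -0.70 ± 0.30. The array with the highest signal in the first probe set, 26-30 somites replicate 2, had the lowest in the second. With the mean of both probe sets the difference over the whole interval was -0.01. These arrays therefore give no direction for Lin28a across the stages.

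Shown next are mature and hairpin RNAs of the let-7 family, from RefSeq (GRCm38.p6). LIN28A is known to act on let-7 precursors, and mature let-7 is known to hold down several of these mRNAs. Of 11 mature let-7 family sequences in the table, 10 share the seed GAGGUAG, bases 2 to 8, given in capitals.
let-7a-5p: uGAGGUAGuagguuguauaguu
let-7b-5p: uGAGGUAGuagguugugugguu
let-7g-5p: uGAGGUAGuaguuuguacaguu
miR-98-5p: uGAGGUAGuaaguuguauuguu
LIN28 proteins are known to bind a GGAG run in the loop of the precursor. A GGAG run anywhere after the 5p strand was found in 10 of 14 hairpins of the family. Whether each run lies in the loop was not checked, and that of Mir7j lies towards the 3' end. One hairpin that holds it (Mirlet7g, in capitals) and one that does not (Mirlet7b) are given.
The first is at chr9:106178840-106178927 and the second at chr15:85707319-85707403, both on the plus strand.
Mirlet7g: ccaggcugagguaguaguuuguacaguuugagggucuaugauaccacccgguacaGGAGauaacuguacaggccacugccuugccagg
Mirlet7b: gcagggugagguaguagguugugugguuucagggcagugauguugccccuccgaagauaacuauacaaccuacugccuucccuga
The microRNAs themselves were not analysed here, so nothing is said of their level at any stage.

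Igf2bp1 and Igf2bp3, which encode closely related RNA-binding proteins of fetal tissue, had differences of opposite sign. Igf2bp3 read 657, 1093 and 705 at 16-20 somites on probe set 1422610_s_at, 2128, 807 and 1098 at 21-25 somites and 2050.2, 1724 and 891 at 26-30 somites. The 3 narrow-range arrays had 1724 to 2128 and the other 6 had 657 to 1098, with no overlap, whereas the stages overlapped. Means were 818 ± 239, 1344 ± 694 and 1555 ± 598 (SD, n = 3), and the log2 differences 0.62 ± 0.38, 0.24 ± 0.38 and 0.86 ± 0.38 for the first step, the second and the whole interval. The last was 0.15 without the narrow-range arrays.

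The further Igf2bp3 probe sets 1422611_s_at and 1450687_at had differences of 0.68 ± 0.30 and 0.81 ± 0.37 over the whole interval. The first read 613, 566 and 917 at 16-20 somites and 1197, 1523 and 755 at 26-30 somites, and the second 155, 129 and 165, then 386, 348 and 163. In both, 26-30 somites replicate 3, the array with the highest Gapdh ratio, fell among the earliest arrays, as it did for Lin28a and Sall4, and the narrow-range arrays lay wholly above the others. The 4th probe set, 1453957_a_at, read 2.3 to 5.1 on 8 arrays and 29.2 on 16-20 somites replicate 1, far below the filter level.

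**Figure D2:**
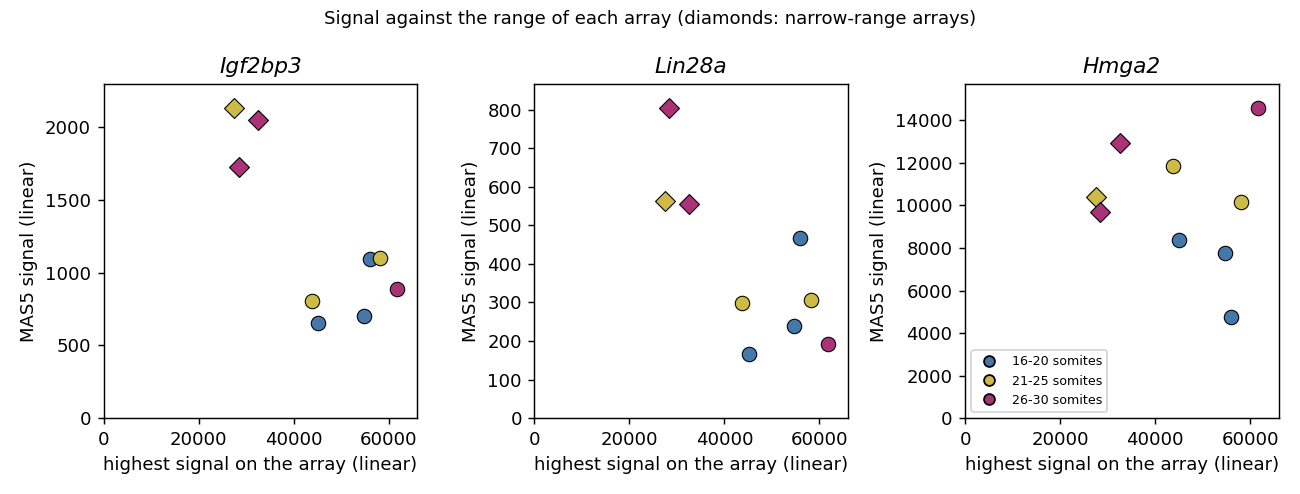
Signal of Igf2bp3, Lin28a and Hmga2 (vertical axes, linear MAS5 scale) against the highest signal on the same array (horizontal axes, linear), with 1 point per array coloured by stage. The 3 narrow-range arrays (diamonds) lie above all others for Igf2bp3 and Lin28a, but within the range of the others for Hmga2.

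Igf2bp1 read 357, 566 and 329.7 at 16-20 somites on probe set 1449210_at, 355, 269.7 and 277 at 21-25 somites and 272, 258 and 289.9 at 26-30 somites. All 3 arrays of the last stage lay below all 3 of the first, as was so for 882 of 8675 genes, or 10.2%. Means were 418 ± 129.5, 301 ± 47.2 and 273 ± 16.2 (SD, n = 3), with differences of -0.41 ± 0.24, -0.12 ± 0.24 and -0.53 ± 0.24. Without 16-20 somites replicate 2, which had the highest value, the last was -0.30. Its second probe set, 1418761_at, read 145, 172 and 177 at 16-20 somites and 149, 185 and 171 at 26-30 somites, a difference of 0.03 ± 0.38, so the lower signal stood in 1 of 2 probe sets.

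Mycn, the MYC family factor of the distal lung epithelium and the nervous system, had its highest mean at the middle stage in 1 of 3 probe sets. Probe set 1417155_at read 3359, 1780.4 and 3621 at 16-20 somites, 3962, 5961 and 3655 at 21-25 somites and 3718, 4785 and 2907 at 26-30 somites. Every array of 21-25 somites lay above every array of 16-20 somites, the closest pair at 3655 and 3621, and those of 26-30 somites overlapped both. Means were 2920.1 ± 995.7, 4526 ± 1252 and 3803 ± 942 (SD, n = 3), with differences of 0.66 ± 0.31, -0.24 ± 0.31 and 0.41 ± 0.31. Without 16-20 somites replicate 2, the lowest array, the first step was 0.34 and the whole interval 0.09. The other Mycn probe sets, 1425922_a_at (27.6 to 118) and 1425923_at (15.2 to 124), were below the filter level and gave -0.68 ± 0.32 and 0.16 ± 0.33 over the whole interval. The former had -0.26 ± 0.32 and -0.42 ± 0.32 for the steps, and the latter, lowest at the middle stage, -1.09 ± 0.33 and 1.25 ± 0.33. When the probe sets were averaged, both steps of Mycn turned, to -0.23 and 0.20.

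Sall4, a zinc finger factor of stem cells and early embryos, read 1875, 1908 and 1422 at 16-20 somites on probe set 1424152_at, 2521, 2603 and 1657 at 21-25 somites and 2609, 3008 and 1594 at 26-30 somites. In both later stages 2 arrays lay above and 1, replicate 3, lay within the range of the first. Means were 1735 ± 271, 2260.3 ± 524 and 2403 ± 729 (SD, n = 3), and the differences 0.36 ± 0.28, 0.07 ± 0.28 and 0.43 ± 0.28. Without the narrow-range arrays the whole difference was -0.11. The dim probe set 1424153_s_at read 45.3 to 47.3 at 16-20 somites, 60.9 to 83.9 at 21-25 somites and 41.2 to 138 at 26-30 somites, or 0.57 ± 0.32.

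**Figure D3:**
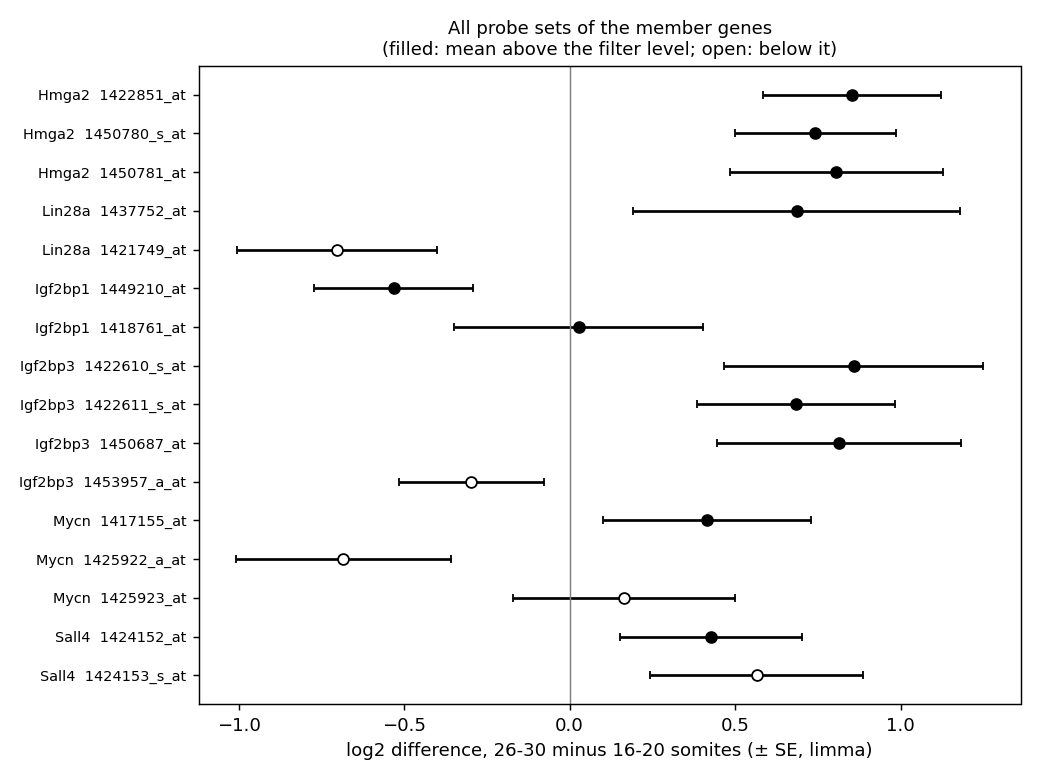
Log2 difference of 26-30 minus 16-20 somites with its SE (horizontal axis, limma) for all 16 probe sets of the 6 genes (vertical axis). Filled points had a mean above the filter level and open points below it; the 3 probe sets of Hmga2 lie close together, at 0.74 to 0.85, while those of Lin28a stand at 0.69 and -0.70.

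With array weights, by which limma lets arrays far from their stage mean count less, the fit gave Hmga2 an adjusted p of 0.0318 and Igf2bp3 one of 0.0248 over the whole interval, 2 of the 6 genes. With these weights 414 genes were called higher, or 4.77%, and since the choice of genes used this comparison nothing is read from the count. At 26-30 somites the narrow-range arrays had the larger weights, 3.38 and 1.34 against 0.67 for replicate 3, while the one of 21-25 somites had 0.40, below the 2.84 of replicate 3 there.

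Genes around LIN28 and let-7 were taken from lists that hold none of the 8 genes. These lists too were chosen with earlier results of these data known, so their differences are a description. Of 18 tested genes known as other let-7 targets, 15 had positive differences over the whole interval, with a median of 0.28 against 0.01 for all genes, and 0 were called. Cyclin D2 (Ccnd2) read 1608, 1275 and 1461 at 16-20 somites and 3365, 3509 and 2677 at 26-30 somites, or 1.12 ± 0.23. The cell cycle factor E2f5 had 0.79 ± 0.26 and the GTPase gene Nras 0.72 ± 0.26. In all 3 genes, picked as the widest of the list, the arrays of 26-30 somites were wholly above those of 16-20 somites. That was so for 5 of the 18 genes and for 968 of all 8675, or 11.2%, and nothing is read from it. Without the 3 narrow-range arrays 13 of 18 were positive with a median of 0.25, and without 16-20 somites replicate 2 16 of 18 with 0.23. In the first step 14 of 18 were positive, with a median of 0.25, and in the second 9 of 18. This split did not hold without the narrow-range arrays, where each step had 11 of 18 positive and a median of 0.18.

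LIN28 partners and enzymes of microRNA processing had 10 of 12 positive differences, a median of 0.15 and 0 calls. Their widest differences were in Ddx5, an RNA helicase of the Drosha complex (0.74 ± 0.38), Tnrc6c, a silencing cofactor (0.55 ± 0.30), and Ran, the GTPase of nuclear export (-0.35 ± 0.30). Ddx5 read 6327 to 7669 on the narrow-range arrays and 2237 to 4047 on the others. Without the narrow-range arrays 8 of 12 were positive and the median was 0.09.

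The IGF axis, to which Igf2bp targets belong, had 8 of 15 positive differences, a median of 0.01 and 0 calls. Igf2, the fetal growth factor, read 3929, 8794 and 5765 at 16-20 somites, 3369, 2034 and 4815 at 21-25 somites and 4086, 3959.7 and 4442 at 26-30 somites (-0.49 ± 0.33). Its highest value was on 16-20 somites replicate 2, the array with high liver markers. Igf1 had the widest difference, 1.68 ± 0.65, with 42.9 to 199 at 16-20 and 185 to 588 at 26-30 somites, and Pik3ca, a kinase downstream of the receptor, had 0.52 ± 0.26. Without the narrow-range arrays 5 of 15 were positive and the median was -0.28.

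The MYC network had 8 of 19 positive differences, a median of -0.14 and 0 calls. This list mixes relatives of Mycn with partners, antagonists and targets of the MYC family, so no common direction is implied by it. Mycl, a dim relative of Mycn, had 1.41 ± 0.58, the nucleolar gene Fbl -0.92 ± 0.46 and Tfap4 0.76 ± 0.31. Fbl read 3512, 4599.6 and 4277 at 16-20 somites and 2335, 2359.9 and 1836 at 26-30 somites, with no overlap. The last stage was wholly below the first for 4 of the 19 genes and for 882 of all 8675, or 10.2%. It was wholly above the first for 3 of the 19 and for 968 of all 8675, or 11.2%, and nothing is read from these counts. Without the narrow-range arrays 10 of 19 were positive with a median of 0.00, so the list has no steady direction.

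The SALL family and the NuRD complex, a histone deacetylase complex that SALL4 recruits, had 9 of 12 positive differences, a median of 0.14 and 0 calls. Hdac2 (0.70 ± 0.35), Mta2 (0.67 ± 0.29) and Mbd2 (0.53 ± 0.20) had the widest, while 6 of 12 were positive without the narrow-range arrays and 10 of 12 without 16-20 somites replicate 2. Other HMG proteins, which bind DNA or nucleosomes by different domains than Hmga2, had 4 of 7 positive and a median of 0.12, and none was called (0 by limma, and 0 with an unadjusted p under 0.05). In the first step, where Hmga2 had most of its difference, 0 of these 7 were positive and their median was -0.22, followed by 5 of 7 and 0.33 in the second. That first step had 2 of 7 positive and a median of -0.44 once the narrow-range arrays were left out, and 2 of 7 and -0.27 without 16-20 somites replicate 2. Over the whole interval the median was 0.06 and 0.08 in these fits, with 4 of 7 positive in each. Their widest differences over the whole interval were -0.35 ± 0.23 in Hmgn3, 0.30 ± 0.38 in Ubtf and 0.28 ± 0.53 in Hmgb2. Other embryonic and oncofetal genes had 4 of 9 positive, a median of -0.01 and 0 calls; Afp, the fetal plasma protein, had -1.31 ± 0.82 with its highest signal, 7949.8, on 16-20 somites replicate 2, the receptor gene Igdcc4 0.96 ± 0.23 and the imprinted gene Mest 0.42 ± 0.47. Without 16-20 somites replicate 2, 7 of these 9 were positive and the median was 0.27.

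**Figure D4:**
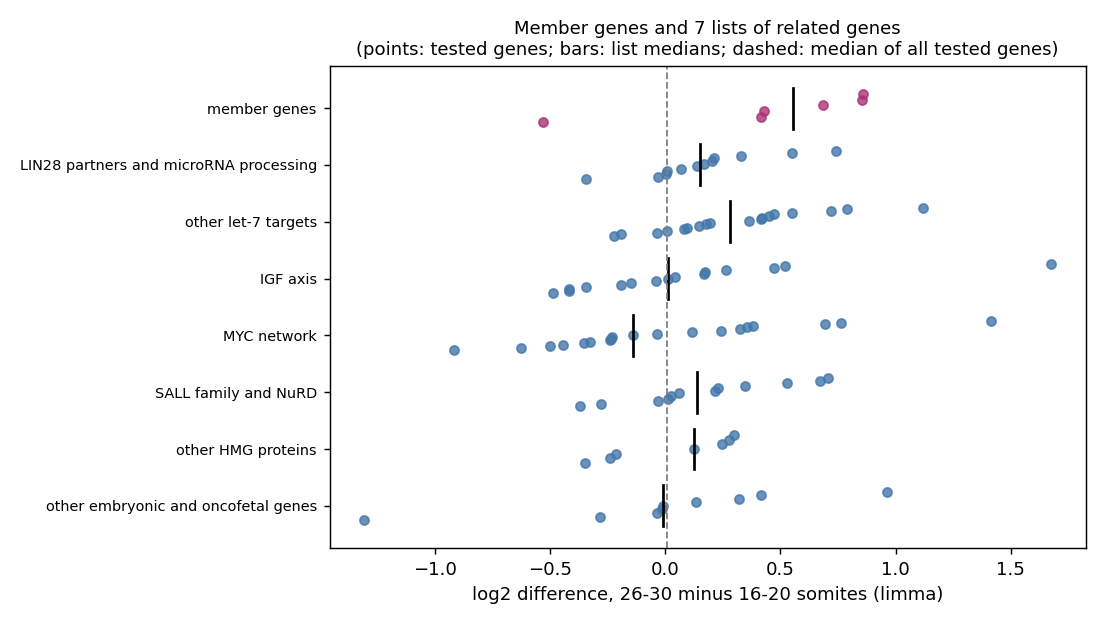
Log2 difference of 26-30 minus 16-20 somites (horizontal axis, limma) for the 6 member genes and for the tested genes of 7 related lists (rows). Points are genes, bars are list medians and the dashed line is the median of all 8675 genes, 0.01; the median is 0.56 for the 6 genes and 0.28 for other let-7 targets.

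Markers of tissues that the dissection could hold were set beside these values. Over the whole interval heart muscle markers had 10 of 13 negative differences, with a median of -0.68, and liver markers 7 of 7, with -1.03, and without 16-20 somites replicate 2 the medians were 0.01 and -0.41. Tnni1 (-1.42), Myh7 (-1.03), Myl3 (-0.99), Ttr (-2.66), Apob (-1.74) and Afp were the widest. Hmga2, Mycn and Igf2bp1 had their extreme value on that same array, the lowest for the first 2 and the highest for Igf2bp1; the part of the marker tissues in this was not tested beyond the values without the array given above. Foregut mesenchyme markers had 9 of 12 positive, with a median of 0.32, led by Hoxa5 (1.31), Tbx5 (1.23) and Isl1 (1.11). Their summed signal was 8435 to 11539 at 16-20 and 11869 to 13889.9 at 26-30 somites. Much of that sum was Ptch1 alone, which overlapped between these stages, at 4119 to 6900 and 6143 to 7790. Endoderm markers were 6 of 12 positive, with a median of -0.01 and the widest differences in Krt18 (-1.31), Krt19 (-0.69) and Krt8 (-0.59), and a summed signal of 11333 to 18658 and 10137 to 11324. The part of a shift between these layers in the Hmga2 difference was not tested.

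Neural tube markers, whose tissue holds much Mycn and Lin28a, had a summed signal of 1797 to 2314 at 16-20, 1861 to 2917 at 21-25 and 2095 to 2242 at 26-30 somites, with 2 of 6 positive and the widest differences in Neurog2 (-1.13), Sox2 (1.04), also a foregut gene, and Sox3 (-0.40). Germ cell markers, whose cells hold Sall4 and Lin28a, summed to 1385 to 1519.5, 1501 to 2244 and 1212 to 1481, with 2 of 5 positive and the widest in Prdm1 (-0.42), Tfap2c (0.35) and Kit (0.30). Tail bud markers summed to 1006 to 1715, 1218 to 1836 and 1061 to 1433, with 3 of 7 positive. Their widest differences were in Cyp26a1 (-0.77), Msgn1 (0.51) and Dll1 (0.40). Primitive blood markers summed to 38099 to 42167, 19402 to 37559 and 22526 to 60981, with 7 of 11 positive and a median of 0.05, and without the narrow-range arrays 10 of 11 and 0.57. Of these genes, Slc4a1 (0.63), Hbb-bh1 (-0.52) and Klf1 (-0.27) had the widest differences. The summed signals of all 4 lists overlapped between the first and the last stage.

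The genes most like Hmga2 over the 9 arrays, by Pearson correlation of log2 signal, were Yaf2 (0.957), St8sia4 (0.943), Emp1 (0.942), Dpysl3 (0.931) and Uba3 (0.930). Over the 6 arrays outside the narrow range the same genes had 0.929 to 0.981. Yaf2 encodes a partner of Polycomb complexes, St8sia4 a polysialyltransferase, Emp1 a membrane protein of epithelia, Dpysl3 a cytoskeletal protein of neurons and Uba3 a subunit of the NEDD8-activating enzyme. Those most like Lin28a were Creld1 (0.949), Efnb1 (0.936), Actn4 (0.933), D16Ertd472e (0.930) and Ap2a2 (0.929), and over the 6 other arrays they had 0.749 to 0.943. The arrays share their stage and their range of signal, and with 8675 genes compared such values describe these 9 arrays and carry no test.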

How the data were processed

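RNA of 9 pools of mouse mid-foregut, 3 per stage, was measured on Affymetrix arrays. The authors' deposited intensity values are linear MAS5 signals, per the submitters' processing notes; no source used here gives the MAS5 version, its target or presence calls. The 2% trimmed mean was 500.2 to 500.3 on every array, so values were used as deposited. Probe sets were named from the platform annotation: 20380 had 1 symbol, 691 several and 1555 none, and 64 were controls. Signals were taken to log2 after adding 26.2, their 20th percentile. Each gene kept the probe set of highest mean signal, and the lowest 30% of 12393 genes were left out. Stage means were fitted to all 9 arrays with limma 3.58.1 in R 4.3.3 (lmFit, eBayes with a trend; two-sided, Benjamini-Hochberg over 8675 genes); all 16 probe sets of the members were fitted again among all probe sets with no filter. The fit was tested on simulated data with known answers. There the genes varied independently, with no effect shared by an array, and the changes set were larger than those of the members. The simulation therefore does not cover the narrow-range arrays or differences as small as those of the members.

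The members, the lists, the tests and the alternatives were chosen with earlier results of these data known. Named genes are the members, the 3 genes of each list with the widest difference over the whole interval, and the 5 genes most correlated with Hmga2 or Lin28a. P-values measure the spread between pools. Arrays held no depth of reading; their number limits the precision. No 2 arrays held identical values. Sequences came from RefSeq tables (GRCm38.p6).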

Additional observations from a re-analysis of the deposited data

How the results depend on the processing

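The count of 0 called genes was compared under further settings. Array weights gave 731 genes for the whole interval, 29 for the second step and 339 for any difference between the stages. Only the 6 arrays of both stages gave 4 for the whole interval. Leaving out 1 array gave 0 to 3 genes for the first step, 0 to 1 for the whole interval and 0 to 2 for any difference. Of the fits chosen after seeing the data, that of each probe set on its own gave 0 of 14266 in every comparison, the fit without the 3 narrow-range arrays gave 1 for the first step, and the 99th percentile of signal as covariate gave 1 for the first step, 1 for the whole interval and 1 for any difference. The replicate block gave 0 in each comparison, and the same numbers did not pair the samples (correlations of their deviations from -0.28 to 0.26).

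The 18 differences of the 6 genes were computed 396 times in all: 17 values had the other sign, spread over 10 differences, and 2 were called, both with array weights. Many of the 396 repeat the main value by design, so the share of unchanged signs does not measure how steady they are. Such fits are those with another filter, without a trend, with the replicate block, with only the arrays compared, or without an array of the stage not compared. None of the sign changes was in Hmga2. The mean of all probe sets turned 6 of them, in Lin28a, Mycn and Igf2bp1, and the fit without the narrow-range arrays another 6, in Lin28a, Sall4, Igf2bp1 and Igf2bp3; the cause was not tested. The other 5 came from leaving out 1 array and were all in the second step: 3 in Sall4, 1 in Lin28a and 1 in Igf2bp3. Dim probe sets, near a signal of 75.1 or below, are least certain.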
